A study of Mus musculus with 24 samples.

Results

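The genes described here encode the protein subunits of the cytosolic ribosome, the particle that translates nuclear-encoded mRNA. They were taken by symbol: rows named Rps or Rpl with a number (and an a, x, y, l or l1 style ending), with Rplp0, Rplp1, Rplp2 and Rpsa, leaving out the Rps6 kinases and symbols marked as pseudogenes. A mean of at least 10 TPM within a table was also required. TPM, a transcript abundance scaled to the same total in each library, is a gene's length-corrected share of the RNA in a library. In bone marrow-derived macrophages (BMDMs) 87 of 22996 genes matched the symbols and 80 reached that level. In J774.1 cells 89 of 54380 genes matched and 81 reached it. The same 80 genes were found in both tables, and Rps3a2 was the additional gene of the J774.1 table, with a mean of 797 TPM there and 0.375 TPM in BMDMs. The BMDM genes nearest to the limit were Rpl12 at 22.4 TPM inside it and Rps4l at 5.07 TPM outside it. In J774.1 cells these were Rpl29 at 40.7 TPM and Rps3a3 at 8.62 TPM.

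BMDMs are primary macrophages grown in culture from bone marrow, here from male C57BL6/N mice aged 6 to 12 weeks. The siRNA given was a control or one against Ctbp1 or Ctbp2, followed by PBS as vehicle or 100 ng/ml lipopolysaccharide (LPS), a component of the bacterial cell wall, for 4 h. These are 6 groups of 3 libraries. J774.1 is a macrophage line of BALB/c origin; wildtype and Ctbp1/2 double knockout cells, 3 libraries each, all received the same LPS dose for the same time. Ctbp1 and Ctbp2 encode nuclear co-repressors that silence genes through DNA-bound partners. No J774.1 library is without LPS, so an LPS response could be measured only in BMDMs. Whether the double knockout cells are 1 clone, and whether replicates came from separate cultures or animals, is not given in the sources used here, so p-values measure the spread between these samples.

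A ribosome holds a single copy of nearly every subunit protein, so cells make these proteins in matched amounts from genes scattered over the genome. Their mRNAs are among the most abundant and longest lived of a cell, and most begin with a C followed by a run of pyrimidines, the 5′ terminal oligopyrimidine (TOP) motif, through which mTOR and the RNA-binding protein LARP1 control translation. Mammalian genomes also hold many intronless copies of these genes, made by reverse transcription of their mRNAs. In macrophages, LPS shifts transcription and translation toward inflammatory products.

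The tables give TPM and no read counts per library, so depth and counting error per library are unknown. Ctbp1 was lower by 1.25 log2 units with its siRNA in vehicle and in LPS cells, and Ctbp2 by 1.49 and 1.59 with its own siRNA. In the double knockout, Ctbp1 differed from wildtype by −2.96 and Ctbp2 by −0.31 on the log2 scale, with 64.1, 61.5 and 63.6 TPM of Ctbp2 left in the libraries labelled double knockout against 81.4, 74.4 and 78.7 in wildtype. All 10 macrophage markers reached 1 TPM in BMDMs, with a sum of 19691 to 23654 TPM, and 8 of 10 did in J774.1 cells, with a sum of 2853 to 3542 TPM. Neutrophil markers summed to 76.0 to 183 TPM and dendritic cell markers to 113 to 172 TPM in BMDM libraries, and to at most 0.742 and 9.06 TPM in J774.1 libraries. Stromal, lymphocyte, red cell and mast cell markers each summed to at most 8.36 TPM in any library.

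Abundant rows in BMDMs included Rplp1, an acidic protein of the ribosomal stalk, with a mean of 2689 TPM, then Rps29 with 2508, Rps24 with 1738 and Rpl41 with 1686 TPM. The lowest were Rpl12 with 22.4, Rps27 with 34.1, Rpl5 with 34.4, Rpl7l1 with 85.2 and Rpl22l1 with 122 TPM. Rpl12, Rps27 and Rpl5 encode ordinary single-copy subunits, and their low rows have a counterpart in other rows of the same table. Genes with a transcript at least 95% identical to a member over at least 80% of its coding sequence, called near copies below, numbered 524 in the BMDM table, and 9 of the 80 members had none. Rps27 had 2.36% of the summed TPM on its own row and Rps27rt, a gene on another chromosome with the same coding sequence, held 1408 TPM. A read from a stretch that copies share without a difference cannot be assigned to 1 gene from its sequence, and the genes below are shown because values given further on differ between their own rows and their sums with copies. Each pair is given over the same 60 coding bases, 5′ to 3′, counted from 1 at the first base of the member's longest annotated start codon (GRCm38), and capitals mark differing bases.
Rps27 (chr3:90212522-90213651, minus strand, coding bases 1 to 60): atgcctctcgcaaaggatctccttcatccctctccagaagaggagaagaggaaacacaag
Rps27rt (chr9:114982366-114982739, minus strand): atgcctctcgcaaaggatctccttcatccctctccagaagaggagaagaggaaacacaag
Rps12 (chr10:23785183-23787275, minus strand, coding bases 61 to 120): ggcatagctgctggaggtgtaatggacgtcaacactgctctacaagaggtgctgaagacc
Rps12-ps3 (chr19:59322290-59322783, plus strand): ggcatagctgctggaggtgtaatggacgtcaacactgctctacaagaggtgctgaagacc
Rps7 (chr12:28630854-28635953, minus strand, coding bases 1 to 60): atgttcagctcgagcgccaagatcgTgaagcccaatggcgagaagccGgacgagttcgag
Rps7-ps3 (chrX:152909505-152910155, minus strand): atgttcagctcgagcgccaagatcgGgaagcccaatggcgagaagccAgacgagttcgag

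Rps27 and Rps27rt had no differing base over the 252 bases of the coding sequence, and Rps12 and Rps12-ps3 none over the 384 bases that aligned. Rps7 and Rps7-ps3 (Gm6472 in the annotation) differed at 3 of 582 bases, of which T26G and G48A lie in the stretch shown. The row of Rps27 was at 4.35, 4.68 and 119 TPM in the control vehicle libraries and at 4.16, 180 and 7.17 TPM in the Ctbp2 siRNA vehicle libraries. A single library of each group stood far above the others. With its copies added, Rps27 was at 1492, 1604 and 1664 TPM in control vehicle and 1537, 1427 and 1425 TPM in Ctbp2 siRNA vehicle, and no library stood apart.

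Adding the copies narrowed the spread of levels between members. The SD of log2 mean TPM over members was 1.19 for own rows and 0.740 with copies in BMDMs, and 1.41 and 0.678 in J774.1 cells. The highest member was 120-fold above the lowest by own rows and 33.4-fold with copies in BMDMs. The highest coefficient of variation within a group of 3 fell from 158% to 13.5% in BMDMs and from 47.9% to 8.39% in J774.1 cells. With copies, the lowest in BMDMs were Rpl7l1 (85.2 TPM), Rpl22l1 (129 TPM) and Rps27l (251 TPM), which are the paralogs of Rpl7, Rpl22 and Rps27.

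**Figure D1:**
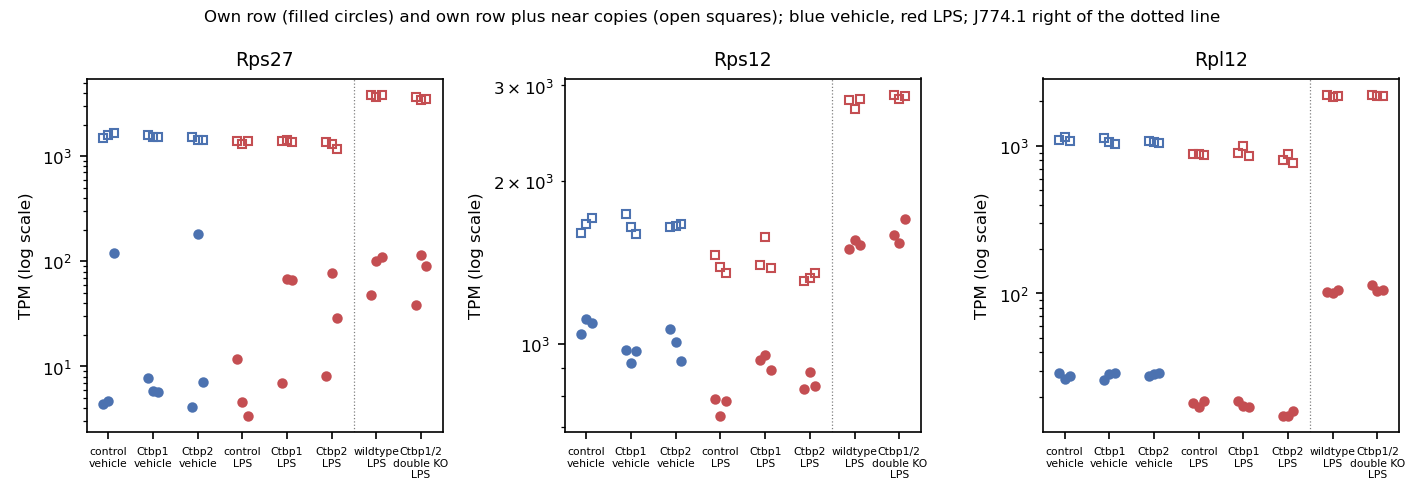
TPM on a log axis of Rps27, Rps12 and Rpl12 in each library of the 8 groups, as the gene's own row (filled circles) and as the sum with its near copies (open squares), blue for vehicle and red for LPS, with J774.1 groups right of the dotted line. The own row of Rps27 spans 3.36 to 180 TPM in BMDMs while the sum stays between 1175 and 1664 TPM.

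In J774.1 cells the copies held more. There, 33 of 81 members had under 90% of their summed TPM on their own row and 22 had under 50%, against 25 and 12 of 80 in BMDMs. The row of Rps2, a small-subunit protein, was at 65.9 TPM in J774.1 cells and 943 TPM in BMDMs, while its pseudogene Rps2-ps10 was at 2484 and 4.73 TPM. Rpl3-ps1 was at 1601 TPM in J774.1 cells and 0.308 TPM in BMDMs. The tables were normalized separately and may rest on different annotations, so a member's own row is not comparable between the cell types. Between control siRNA BMDMs with LPS and wildtype J774.1 cells with LPS, own rows had ratios from 0.0725 to 13.2, and 72 of 80 were higher in J774.1 cells. With copies the ratios ran from 1.25 for Rps29 to 4.75 for Rps27l, with a median of 2.45, and 80 of 80 were higher. No test was made across the tables. Abundant J774.1 rows included Rplp1 with 5509, Rps25 with 3331, Rpl41 with 3106 and Rpl23a with 3064 TPM, and the lowest were Rpl29, Rps2, Rps27 (83.6 TPM), Rpl12 (105 TPM) and Rps18 (125 TPM).

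The start of the gene was read for 60 of the 81 members, which have 71 promoters in RefSeq's table (GRCm38.p6). Windows of 50 bases are shown, 25 before the annotated start and 25 from it, read 5′ to 3′ on the gene's own strand, with the longest run of C and T in capitals. The genes are some of those whose RNA rose or fell most under LPS or in the double knockout, with Rplp2 and Rps6 as windows that have a TOP start. Others with large differences, such as Rps12 and Rpl13a, are not shown.
Rplp2 (chr7:141447626-141447675, plus strand): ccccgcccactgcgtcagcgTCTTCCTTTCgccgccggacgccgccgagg
Rps6 (chr4:86857343-86857392, minus strand): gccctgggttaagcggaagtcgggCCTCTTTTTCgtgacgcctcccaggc
Rpl27a (chr7:109519170-109519219, plus strand): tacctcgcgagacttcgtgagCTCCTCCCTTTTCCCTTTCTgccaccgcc
Rpl12 (chr2:32961687-32961736, plus strand): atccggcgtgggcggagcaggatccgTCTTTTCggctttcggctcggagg
Rpl13 (chr8:123102325-123102374, plus strand): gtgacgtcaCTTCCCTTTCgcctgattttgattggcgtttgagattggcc
Rpl22l1 (chr3:28805483-28805532, plus strand): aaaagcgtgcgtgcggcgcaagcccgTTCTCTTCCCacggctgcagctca
Rpl24 (chr16:55966250-55966299, plus strand): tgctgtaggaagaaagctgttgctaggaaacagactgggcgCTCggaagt
Rpl7l1 (chr17:46782632-46782681, minus strand): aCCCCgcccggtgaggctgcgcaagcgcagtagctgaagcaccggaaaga

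A C at the annotated start followed by at least 4 bases of C or T, on the gene's strand, was found in 13 of 71 member promoters (18.3%) and in 2.51% of the 32851 promoters of the table. A run of at least 8 pyrimidines anywhere in the window was found in 33 of 71 (46.5%) against 19.7% of all promoters. Both measures depend on the annotated start. In the windows above the runs begin from 24 bases before the start to the 17th base from it. Rpl24 and Rpl7l1, the pair of genes that LPS raised in control and Ctbp1 siRNA cells with TPM, had longest runs of 3 and 4 bases. Runs as short were found in genes that fell: Rpl41 with 3 and Rpl26 and Rps4x with 4 bases were called lower in all 3 siRNA groups with TPM.

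LPS was followed by a smaller share of TPM on the ribosomal protein genes. Their sum was 6.60, 6.63 and 6.80% of TPM in control vehicle libraries and 5.81, 5.67 and 5.85% in control LPS libraries (6.68% ± 0.108 and 5.77% ± 0.0948, SD, n = 3). It was 6.63% ± 0.165 and 5.97% ± 0.158 in Ctbp1 siRNA cells, and 6.75% ± 0.165 and 5.82% ± 0.136 in Ctbp2 siRNA cells, with n = 3 each. In each siRNA group all LPS libraries lay below all vehicle libraries. Both subunits took part, from 2.92% to 2.53% for the small and from 3.76% to 3.24% for the large in control cells, and so did the near copies, from 1.57% to 1.43%. TPM is a share of the library, and the median gene was lower too: when libraries were instead scaled by the median ratio of all tested genes (median-of-ratios scaling), the same sums were 6.15 and 6.14 in control, 6.13 and 6.28 in Ctbp1 siRNA and 6.34 and 6.45 in Ctbp2 siRNA cells. In bulk RNA, fewer cells and less RNA per cell cannot be told apart. The 6 cycling cell markers moved along, from a sum of 954 to 1066 TPM in vehicle to 549 to 668 TPM in LPS libraries. Stromal markers went from 0.330 to 0.978 TPM in vehicle to 4.65 to 8.36 TPM in LPS libraries. In each LPS group 1 of the 8 stromal markers reached 1 TPM, and Pdgfrb was the highest. Dendritic cell markers went from 123 to 124 TPM to 146 to 147 TPM in control cells. There 1 dendritic cell marker reached 1 TPM in vehicle and 2 did with LPS, with Itgax the highest in both. The part of these markers in the result was not tested.

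**Figure D2:**
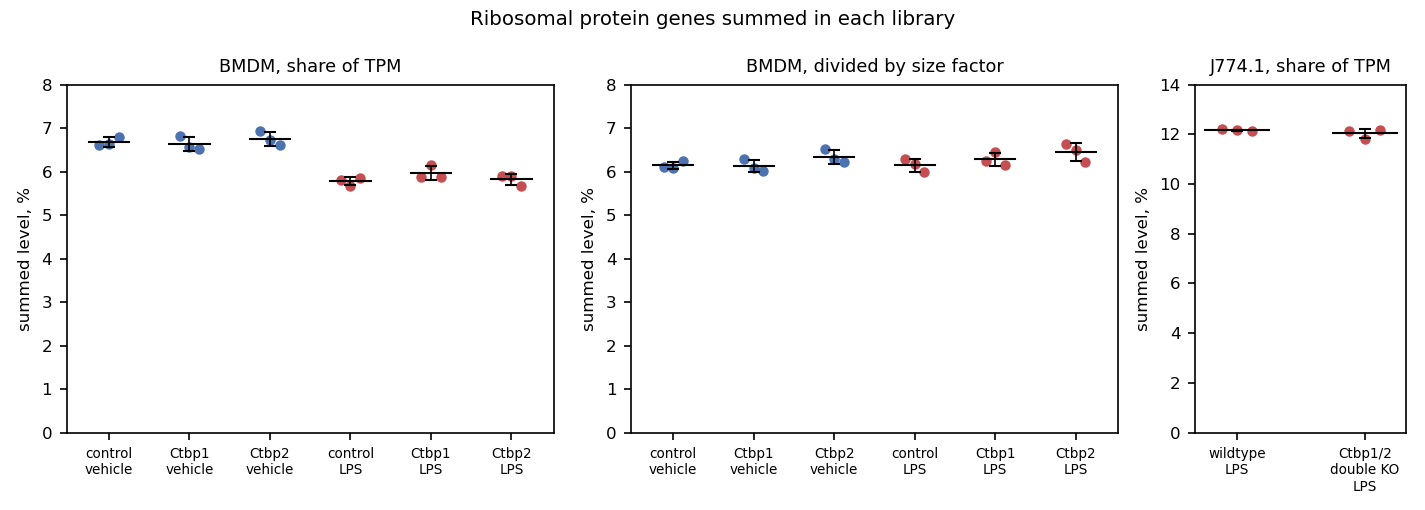
Summed level of the ribosomal protein genes in each library. Separate panels show BMDM groups as a percent of TPM, BMDM groups with median-of-ratios scaling, and J774.1 groups, normalized separately, as a percent of TPM. BMDM vehicle libraries sit between 6.51 and 6.93% and LPS libraries between 5.66 and 6.15%, a gap that holds for TPM and not for median-of-ratios scaling, and J774.1 libraries sit between 11.8 and 12.2%.

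Gene by gene, on the log2(TPM + 1) scale, LPS lowered 67 and raised 2 of 80 members in control siRNA cells, at an adjusted p under 0.05 in limma with Benjamini-Hochberg adjustment over all genes tested. Of all 7918 genes tested, 76.4% were called, 53.1% lower and 23.3% higher. The members' median was −0.20 against −0.21 for all genes, and their interquartile range 0.13 against 0.69. A difference of at least 0.5 log2 units was seen in 3 members (3.75%) and in 40.8% of all genes. Ribosomal protein genes thus lay near the middle of the LPS differences and close to each other. The members with at least 90% of their TPM on their own row gave 48 lower and 2 higher of 55.

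The direction of a member's LPS difference depends on the scaling. Median-of-ratios scaling moved the median of all genes by 0.20, 0.18 and 0.23 log2 units in control, Ctbp1 and Ctbp2 siRNA cells. Relative to that scaling, 11 members were higher and 12 lower with LPS in control cells, where 71.8% of all genes were called, and the members' median was 0.01. Among all genes called, the share that was higher went from 30.5% with TPM to 50.2% with that scaling. In the authors' deposited table of DESeq2 results, 41 of 80 members were higher and 3 lower in control cells, with a median log2 fold change of 0.13. Of the 17185 genes with an adjusted p there, 4432 were higher and 4176 lower. In control cells Rpl12, Rps12 and Rpl13 were called lower, and Rpl24 and Rpl7l1 higher, with both scalings and in the authors' deposited table. A scaling factor per library moves all members nearly alike, so their order is no test of the scaling.

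**Figure D3:**
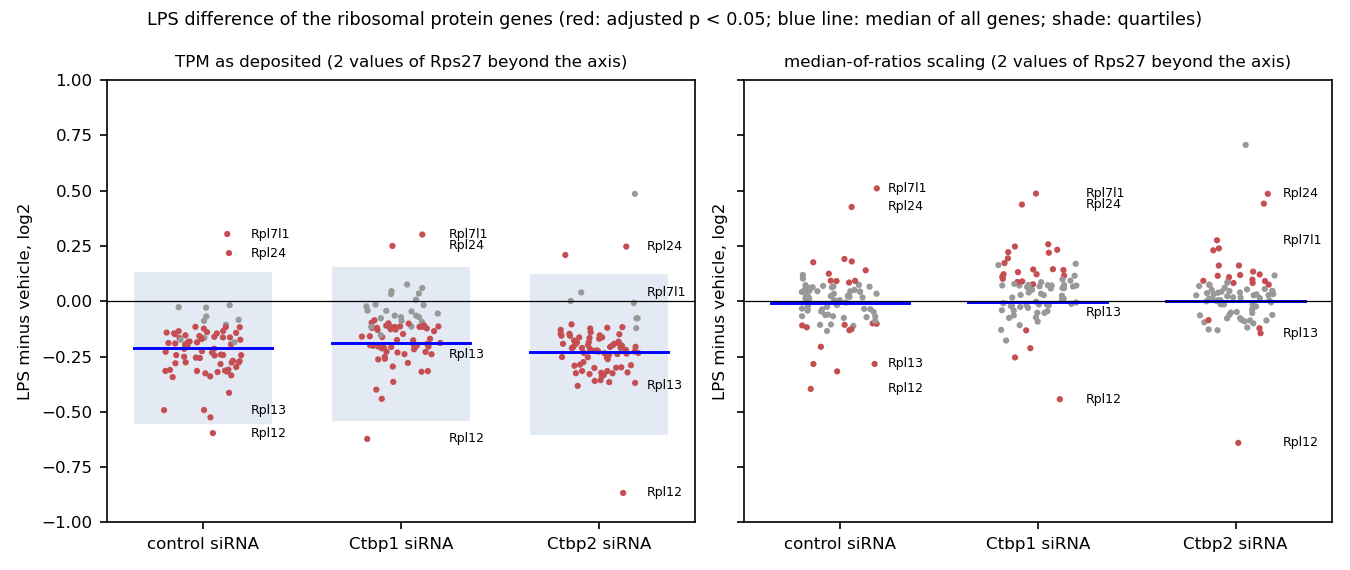
LPS minus vehicle on the log2 scale for each ribosomal protein gene in the 3 siRNA groups, with TPM as deposited in one panel and median-of-ratios scaling in the other; points are genes, red for an adjusted p under 0.05, with the median of all genes as a blue line and, for TPM, their quartiles as shade. With TPM most members lie below 0 beside the all-gene median, with the other scaling both lie near 0, and Rpl24 and Rpl7l1 lie above the other members drawn in the control and Ctbp1 siRNA columns of both panels. The values of Rps27 in those columns (−1.19 and 2.17 with TPM, neither called) lie beyond the axis.

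In the small subunit 27 of 32 members fell and none rose in control cells (median −0.18), and in the large subunit 40 of 48 fell and 2 rose (median −0.23). Rps12, a small-subunit protein, had the largest called drop of its subunit: 1043, 1112 and 1093 TPM in control vehicle and 790, 734 and 785 TPM in control LPS libraries, a difference of −0.49. Its row shares sequence with Rps12-ps3, and with copies the difference was −0.25 (adjusted p = 1.13e-04, limma). Rpsa, a small-subunit protein also known as the laminin receptor, was at 946, 929 and 937 TPM in vehicle and 827, 802 and 901 TPM in LPS libraries, without overlap. Its difference was −0.15 (adjusted p = 0.00856, limma) with TPM and 0.05 with median-of-ratios scaling.

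In the large subunit, Rpl12, which sits at the base of the stalk, had the largest drop: 28.8, 26.5 and 27.5 TPM in vehicle and 18.2, 16.9 and 18.7 TPM in LPS libraries of control cells, −0.60 ± 0.062 (SE, adjusted p = 1.47e-07, limma). The groups did not overlap, and the Ctbp2 siRNA LPS libraries were lower still, at 14.7, 14.7 and 15.98 TPM. This row holds 2.30% of the RNA of Rpl12 and its copies, shares exons with Lrsam1 on the opposite strand in data without strand, and with copies the difference was −0.34 (adjusted p = 2.11e-05, limma). Rpl13, a large-subunit protein, was at 739, 711 and 742 TPM in vehicle and 537, 520 and 501 TPM in LPS libraries, a difference of −0.49 with TPM, −0.28 with median-of-ratios scaling and −0.18 with copies. Rpl3, a protein near the peptidyl transferase centre, was at 663, 663 and 676 TPM in vehicle and 508, 516 and 563 TPM in LPS libraries, −0.34 (adjusted p = 3.81e-07, limma), and −0.13 (adjusted p = 0.00175) with median-of-ratios scaling. Rpl12 and Rpl3 were the members called lower in all 3 siRNA groups under both scalings. Rpl27a differed by −0.53, Rpl10 by −0.41 and Rpl10a by −0.34, and the first 2 of these have most of their RNA on the rows of copies.

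The stalk proteins Rplp0, Rplp1 and Rplp2, which recruit the translation factors, moved little. Rplp0 was at 925, 910 and 929 TPM in vehicle and 850, 821 and 877 TPM in LPS libraries of control cells (log2 difference −0.12, adjusted p = 0.00148, limma). Rplp1 was at 2711, 2754 and 2818 TPM and then 2412, 2244 and 2654 TPM (−0.18, adjusted p = 0.00515). Rplp2 was at 738, 792 and 771 TPM and then 702, 674 and 704 TPM (−0.15, adjusted p = 0.00777). With TPM 76.4% of all genes were called in this comparison. The differences of the stalk genes were 0.09, 0.03 and 0.06 with median-of-ratios scaling, so their direction depends on the scaling.

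Rpl24, a large-subunit protein at the interface between the subunits, rose. It was at 665, 637 and 638 TPM in control vehicle and 794, 740 and 725 TPM in control LPS libraries. In Ctbp1 siRNA cells it was at 661, 631 and 613 TPM in vehicle and 779, 754 and 732 TPM in LPS, and in Ctbp2 siRNA cells at 651, 638 and 608 TPM and 773.9, 749.7 and 727.9 TPM. All 9 LPS libraries lay above all 9 vehicle libraries. The log2 differences were 0.22, 0.25 and 0.25 (adjusted p = 1.74e-04, 4.44e-05 and 4.55e-05, limma), and 0.43, 0.44 and 0.49 with median-of-ratios scaling. Rpl24 was the member called higher in all 3 siRNA groups with TPM, against 49 called lower in all 3. Within single groups 50.9 to 55.2% of all genes were called lower and 23.3 to 24.5% higher. The log2 fold change of Rpl24 in the authors' deposited table was 0.55 in control cells.

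**Figure D4:**
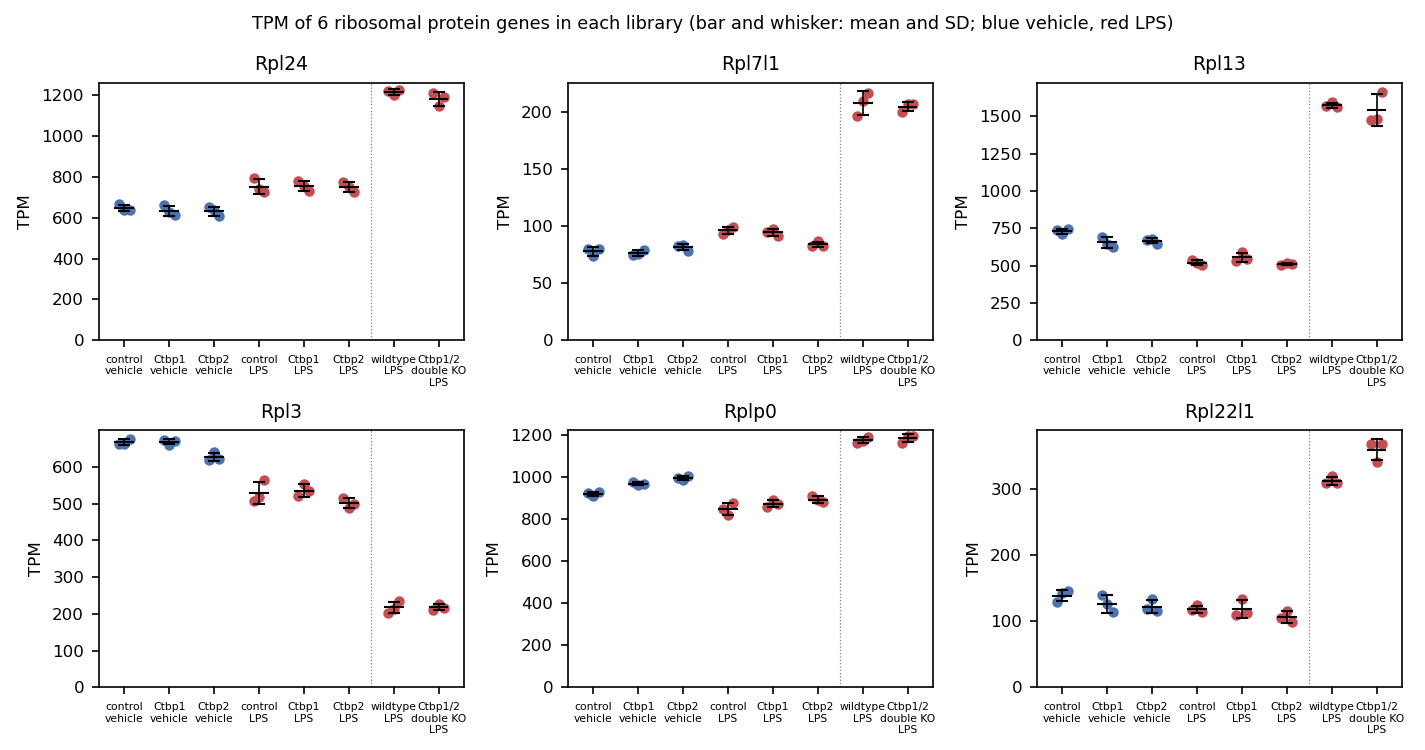
TPM of Rpl24, Rpl7l1, Rpl13, Rpl3, Rplp0 and Rpl22l1 in each library of the 8 groups, with mean and SD, blue for vehicle and red for LPS, and J774.1 groups, normalized separately, right of the dotted line. Rpl24 is higher in every BMDM LPS library, Rpl13 and Rpl3 are lower in every one with TPM, and Rpl22l1 is higher in the double knockout than in wildtype J774.1 cells.

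Paralog pairs differed in how they moved. Rpl7l1, a paralog of Rpl7 linked to the making of the large subunit, was at 79.9, 73.5 and 80.3 TPM in control vehicle and 93.0, 96.6 and 99.4 TPM in control LPS libraries, a log2 difference of 0.30 ± 0.046 (SE, adjusted p = 1.37e-05, limma). Rpl7 itself was at 731, 685 and 697 TPM and then 604, 597 and 566 TPM, a difference of −0.26 with TPM and −0.05 (adjusted p = 0.315) with median-of-ratios scaling. As a percent of Rpl7, a ratio that scaling does not touch, Rpl7l1 was at 11.1% ± 0.409 in vehicle and 16.4% ± 1.09 in LPS libraries (SD, n = 3). It was at 11.6% and 14.9% in Ctbp1 siRNA cells, at 12.3% and 14.4% in Ctbp2 siRNA cells, and at 12.6% and 12.7% in wildtype and double knockout J774.1 cells. Every BMDM LPS library had a higher ratio than every vehicle library.

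Rpl22l1 kept its ratio to Rpl22, an RNA-binding subunit of the large particle. The ratio was 23.5% ± 0.872 in control vehicle and 24.3% ± 1.62 in control LPS libraries (SD, n = 3), and both genes were lower with LPS, by −0.28 for Rpl22 and −0.23 for Rpl22l1 with TPM. Rps27l, the p53-responsive paralog of Rps27, differed by −0.17 (adjusted p = 0.00896, limma) with TPM and by 0.03 with median-of-ratios scaling. No ratio to Rps27 is given, since the row of Rps27 spans 3.36 to 180 TPM between BMDM libraries.

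In Ctbp1 siRNA cells LPS lowered 54 and raised 2 members (median −0.12, all genes −0.19), where 75.4% of all genes were called, 50.9% lower and 24.5% higher. In Ctbp2 siRNA cells it lowered 71 and raised 2 (median −0.21, all genes −0.23), where 78.7% were called, 55.2% lower and 23.5% higher. With median-of-ratios scaling these counts were 4 lower and 21 higher (71.6% of all genes called), and 4 lower and 18 higher (73.2%). Estimates were negative in all 3 siRNA groups for 70 of 80 members, and Rpl19, Rpl27, Rps27 and Rps9 were called in none. Of all 7918 genes, 5263 had a negative estimate in control, 5154 in Ctbp1 siRNA and 5328 in Ctbp2 siRNA cells. Counts over all 3 groups jointly are not given for all genes. In Ctbp2 siRNA cells the genes raised were Rpl24 and Rpl5, and Rpl5 differed by −0.14 with its copies added. Under median-of-ratios scaling, 9 members were called in the same direction in all 3 groups: Rpl12 and Rpl3 lower, and Rpl4, Rpl5, Rpl7l1, Rpl19, Rpl23a, Rpl24 and Rps9 higher.

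The siRNAs themselves were followed by few calls among the members. With Ctbp1 siRNA in vehicle cells 1 member was lower, where 0.215% of all genes were called, and 18 of 80 members and 811 of all 7918 genes had an unadjusted p under 0.05. It was Rps7, a small-subunit protein that binds MDM2, at 534, 537 and 542 TPM against 615, 603 and 612 TPM in control, a log2 difference of −0.18 ± 0.032 (SE, adjusted p = 0.0289, limma). The groups did not overlap. Its copy Rps7-ps3 was at 189, 160 and 152 TPM against 143, 126 and 130 TPM, and Rps7 with its copies at 748, 728 and 715 TPM against 783, 745 and 762 TPM, a difference of −0.06 (adjusted p = 0.592). Leaving out either control vehicle library numbered 1 or 4, or any Ctbp1 siRNA vehicle library, ended the call of the own row (adjusted p up to 0.144).

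With Ctbp1 siRNA in LPS cells 1 member was higher, where 0.152% of all genes were called and 15 of 80 members and 635 of all 7918 genes had an unadjusted p under 0.05. Rps12 was at 931, 952 and 894 TPM against 790, 734 and 785 TPM in control LPS libraries, 0.27 ± 0.048 (SE, adjusted p = 0.0359, limma). For the change of the LPS difference by Ctbp1 siRNA, 24 of 80 members and 520 of 7918 genes had unadjusted p under 0.05. The median change was 0.07 for members and 0.02 for all genes. Rps12 was also the single gene of 7918 (0.0126%) for which this change was called. The interaction was 0.45 ± 0.068 on the log2 scale (SE, adjusted p = 0.0412, limma; 0.0557 with median-of-ratios scaling), with LPS differences of −0.04 in Ctbp1 siRNA and −0.49 in control cells. The row of Rps12-ps3 moved opposite: 534, 527 and 595 TPM in control vehicle, 653, 637 and 550 TPM in control LPS, 742, 704 and 615 TPM in Ctbp1 siRNA vehicle and 457, 596 and 473 TPM in Ctbp1 siRNA LPS libraries. Summed with its copies, Rps12 was at 1602, 1667 and 1706 TPM and then 1459, 1384 and 1348 TPM in control cells, and at 1736, 1641 and 1598 TPM and then 1400, 1572 and 1380 TPM in Ctbp1 siRNA cells. With 1 library left out, the interaction was called in 5 of 18 fits (adjusted p from 0.0117 to 0.201) and the Ctbp1 siRNA difference in LPS in 7 of 18 (0.0138 to 0.196), so most of the 18 libraries, other groups' included, ended a call by their absence. The summed row gave an interaction of 0.05 (adjusted p = 0.966) and a Ctbp1 siRNA difference in LPS of 0.05 (adjusted p = 0.822). The siRNA comparisons share the control libraries, so they are not separate evidence.

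With Ctbp2 siRNA in vehicle cells no member was called in limma, where 1.02% of all genes were. There 12 of 80 members and 1052 of all 7918 genes had an unadjusted p under 0.05. The authors' deposited table had 3 members higher, where 159 of 7836 genes were higher and 64 lower. In LPS cells 2 members were lower in limma, where 3.17% of all genes were called. Rpl7l1 was at 82.4, 86.9 and 83.0 TPM against 93.0, 96.6 and 99.4 TPM in control, without overlap: −0.19 ± 0.046 (SE, adjusted p = 0.0301, limma), and −0.14 (adjusted p = 0.123) with median-of-ratios scaling. Rpl7a, a large-subunit protein, was at 796, 740 and 739 TPM against 832, 822 and 884 TPM, −0.16 ± 0.038 (SE, adjusted p = 0.0341), and −0.10 (adjusted p = 0.188) with that scaling. The call of Rpl7l1 ended without Ctbp2 siRNA LPS library 1 or 4 or control LPS library 3 or 4 (adjusted p up to 0.117), and that of Rpl7a without Ctbp2 siRNA LPS library 3 or 4 or control LPS library 4 (up to 0.118). By the authors' deposited table, 7 members were higher and none lower in this comparison, where 299 of 10956 genes were higher and 164 lower. For Ctbp2 siRNA no member's LPS difference was called as changed (0.101% of all genes were), with 7 of 80 members and 654 of all 7918 genes at an unadjusted p under 0.05, and that of Rpl7l1 was −0.26 (adjusted p = 0.166).

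In J774.1 cells with LPS the ribosomal protein genes summed to 12.2% ± 0.0232 of TPM in wildtype and 12.0% ± 0.192 in double knockout libraries (SD, n = 3), with overlapping libraries. With median-of-ratios scaling the sums were 12.1, 11.6 and 12.0 in double knockout and 12.4, 12.2 and 12.2 in wildtype libraries, without overlap. The difference was then −0.401 percentage points against −0.131 with TPM, where leaving out 1 library moved it between −0.191 (without double knockout library 3) and −0.0205 (without double knockout library 2). Of 81 members 3 were higher and 5 lower in the double knockout, where 42.0% of all 7782 genes tested were called. None differed by 0.5 log2 units or more, against 10.7% of all genes, and the members' interquartile range was 0.05 against 0.28. The median was −0.02 for members and 0.03 for all genes. With median-of-ratios scaling 2 members were higher and 10 lower, where 43.0% of all genes were called, and 37 members were lower and 1 higher by the authors' deposited table.

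Rpl22l1 had the largest difference, with 368, 341 and 368 TPM in double knockout and 309, 319 and 309 TPM in wildtype libraries (0.20 ± 0.0365, SE, adjusted p = 0.00261, limma). Its groups did not overlap, and as a percent of Rpl22 it was at 31.0% ± 0.913 against 25.7% ± 1.17 (SD, n = 3). Rpl22 itself was at 1149, 1127 and 1192 TPM against 1261, 1192 and 1190 TPM and was not called (adjusted p = 0.113). Rpl13a, known for its part in the GAIT complex that represses translation in macrophages, was at 2435, 2380 and 2426 TPM against 2261, 2198 and 2214 TPM (0.12, adjusted p = 0.00302). Both genes were called with median-of-ratios scaling too, at 0.17 and 0.08. Rpl39, at the exit of the peptide tunnel, was at 655, 623 and 660 TPM against 594, 598 and 624 TPM, with overlap (0.09, adjusted p = 0.0476), and was not called with that scaling (adjusted p = 0.198).

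Rpsa was lower in the double knockout, at 2610, 2621 and 2551 TPM against 2794, 2845 and 2816 TPM in wildtype (−0.12, adjusted p = 0.00223, limma). Rps21, which binds near Rpsa on the small subunit, was at 1314, 1311 and 1317 TPM against 1408, 1449 and 1405 TPM (−0.11, adjusted p = 0.00426). Neither gene overlapped between groups. Rps13 was at 1574, 1597 and 1601 TPM against 1650, 1668 and 1714 TPM, Rpl41 at 3033, 3025 and 2924 TPM against 3344, 3204 and 3109 TPM, and Rpl27a at 513, 540 and 556 TPM against 586, 597 and 566 TPM, with differences of −0.08, −0.10 and −0.12. With 1 library left out in turn, Rpl22l1, Rpl13a, Rpsa and Rps21 stayed called in 6 of 6 fits, Rpl27a and Rpl41 in 3 and Rpl39 and Rps13 in 2. The count of lower members was then 2 to 5 and that of higher members 2 to 6; it was 2 lower without wildtype library 2, 3 lower without wildtype library 1, and 6 higher without double knockout library 2. The cycling markers summed to 906 to 969 TPM in the double knockout and 1150 to 1180 TPM in wildtype, and the macrophage markers to 2853 to 3142 TPM against 3473 to 3542 TPM, and their part in these results was not tested.

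**Figure D5:**
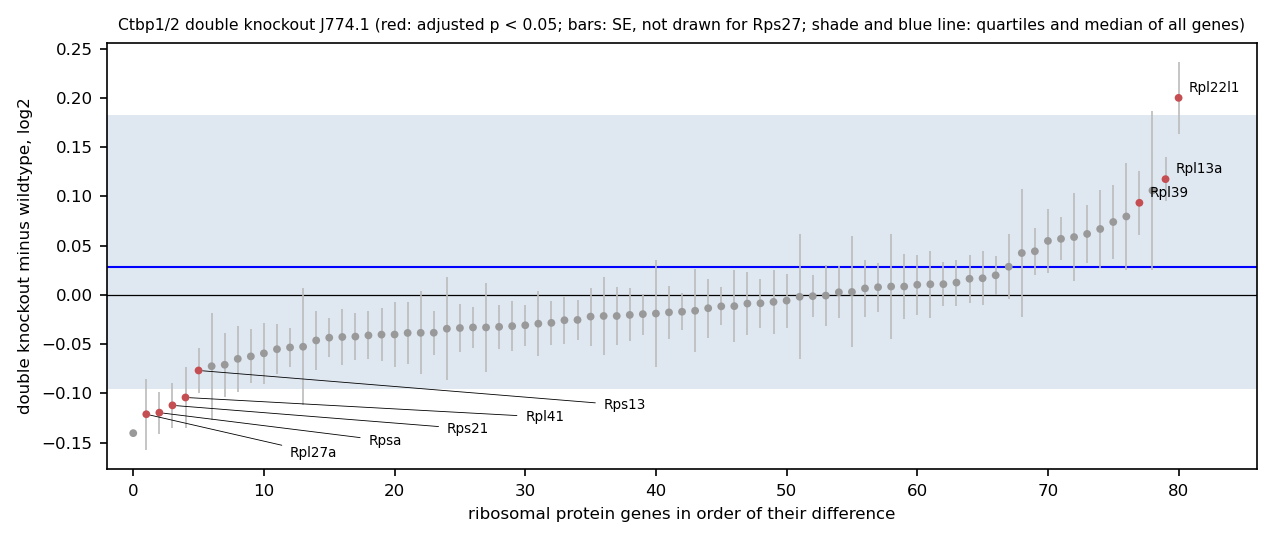
Double knockout minus wildtype on the log2 scale for 81 ribosomal protein genes in order of their difference, with SE bars (not drawn for Rps27), red for an adjusted p under 0.05, and the median and quartiles of all genes as a blue line and shade. With TPM the 8 called genes run from −0.12 for Rpl27a to 0.20 for Rpl22l1 and the uncalled genes from −0.14 to 0.11, so some uncalled genes lie as far from 0 as called ones.

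Other genes of the translation machinery were read from lists. Fau and Rack1 encode ribosomal components that the symbols do not take. Of 8 such genes and copies tested, 5 were lower and none higher with LPS in control cells. Among all genes, 53.1% were lower and 23.3% higher. Fau differed by −0.08 (adjusted p = 0.0549, limma) and Rack1 by −0.08, and with median-of-ratios scaling both differed by 0.13. Of 76 mitochondrial ribosomal protein genes tested, which serve the organelle's own ribosome, 47 were lower and 7 higher (median −0.26, all genes −0.21). With median-of-ratios scaling 21 were lower and 12 higher, where 2829 of all 7918 genes were lower and 2853 higher.

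Of 66 ribosome biogenesis genes tested, 29 were higher and 13 lower with LPS in control cells, where 23.3% of all genes were higher and 53.1% lower. Their median was 0.17 with TPM, and 45 were higher and 3 lower with median-of-ratios scaling. The difference from the ribosomal proteins was not tested. With TPM the counts were 38 and 7 in Ctbp1 siRNA and 30 and 13 in Ctbp2 siRNA cells. Rrs1, which helps to bring the 5S particle into the large subunit, went from 21.6, 21.9 and 21.5 TPM to 109, 115 and 95.9 TPM, a log2 difference of 2.24 (adjusted p = 6.13e-15, limma). Sbds, which releases eIF6 from the new large subunit, rose by 1.24 and Gtpbp4 by 1.01, while Polr1h, a subunit of RNA polymerase I, was lower by 0.92 log2 units and Imp3 by 0.90. In the double knockout 22 of 77 biogenesis genes were lower and 4 higher, among them Polr1c at −0.32, and 30 lower and 3 higher with median-of-ratios scaling. Of all 7782 genes, 1293 were lower and 1979 higher there with TPM.

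Of 40 translation factors, LPS raised 16 and lowered 15 in control cells with TPM, against all-gene shares of 23.3% raised and 53.1% lowered. Median-of-ratios scaling gave 25 raised and 2 lowered factors, while all 7918 genes gave 2853 raised and 2829 lowered. The difference between the factors and all genes was not tested. Eif4g2, a scaffold of initiation, rose from 473, 508 and 523 TPM to 981, 992 and 1024 TPM, and Eif4b fell from 151, 164 and 159 TPM to 96.9, 97.0 and 107 TPM. The elongation factors Eef1a1 and Eef2, whose mRNAs also carry TOP motifs, differed by −0.12 and −0.25 with TPM and by 0.09 and −0.04 with the other scaling. Of 34 genes tested in the list of upstream control, 19 were lower and 9 higher, near the all-gene shares of 53.1% and 23.3%, and 14 and 12 with median-of-ratios scaling. Larp1 rose from 43.7, 45.4 and 45.1 TPM to 107, 108 and 103 TPM (1.23, adjusted p = 1.07e-13, limma), and Myc, a transcription factor that drives ribosomal protein genes, fell from 23.3, 28.3 and 25.2 TPM to 11.6, 13.9 and 13.9 TPM (−0.91, adjusted p = 1.08e-07). Mtor differed by −0.05 (adjusted p = 0.662).

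Members with and without a run of at least 8 pyrimidines in the 50-base window around the start had similar LPS differences in control cells. The window includes 25 bases before the annotated start. Of 32 genes with a run of at least 8, 25 were lower and none higher (median −0.20), and of 28 with a shorter run 23 were lower and 2 higher (median −0.21). The 13 genes with a TOP start by the rule above had 12 lower (median −0.23). The difference between these classes was not tested.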

How the data were processed

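RNA was sequenced from poly(A) RNA with an unstranded kit, per the labels' protocols. The authors deposited 1 value per gene and library. Per the file headers the BMDM values are scaled TPM from Salmon at gene level on mm39. The J774.1 sample columns name neither tool nor unit, and their values were read as TPM. The submitters' processing notes name FastQC, Salmon 1.9.0, DESeq2 1.44.0 and R 4.4.1, with the builds mm39, GRCm38 and GRCm39. The deposited tables also hold mean normalized counts (a signal over samples, not used here), log2 fold changes with raw and adjusted p-values of the authors' DESeq2 fits, used only where the authors' deposited table is named. TPM sums were 999839 to 999944 (BMDM) and 999503 to 999526 (J774.1); the 281 repeated lines of the J774.1 table (54661 lines) were kept once per gene ID.

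TPM plus a pseudocount of 1 was tested on the log2 scale with limma 3.58.1 in R 4.3.3 (lmFit, eBayes with trend and robust estimation), keeping genes that averaged 10 TPM or more (7918 BMDM and 7782 J774.1 genes). All 18 BMDM libraries shared 1 fit, and the 6 of J774.1 another. There were 10 comparisons, each adjusted by Benjamini-Hochberg over all its genes, and calls are at 0.05. The pseudocount understates changes of low genes. Scripts were tested on simulated data.

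Near copies were found with BLAST+ 2.17.0 against GENCODE vM21 transcripts (GRCm38), where at least 50% of a gene's transcripts matched; this summing was chosen after seeing the data. The members and gene lists were chosen with earlier results of these data known. Named members were the 5 highest and 5 lowest of a table, the 6 largest called differences in each direction, members called in an siRNA comparison, an interaction or opposite directions, stalk proteins, Rpsa and paralog pairs; other named genes were preset or the 3 largest called of a list in each direction. Some genes this rule takes are not reported here. Rps3a2, Rps4l, Rps3a3, the copies and the members called in all or none of the LPS comparisons were named beyond this rule, after their values were seen. Exons of 15 members overlap another protein-coding gene, whose reads cannot be told apart without strand. Alternatives were another pseudocount, filters, scalings, eBayes settings, a replicate block, fewer libraries and leaving out each library.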

Additional observations from a re-analysis of the deposited data

Results flagged for a closer look

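The LPS difference of Rps12, a small-subunit protein, differed between Ctbp1 siRNA and control siRNA BMDMs by 0.45 on the log2 scale in a test of the interaction itself (SE 0.068, adjusted p = 0.0412, limma). It was called in 5 of 18 fits that left out 1 library, and not with median-of-ratios scaling or with a replicate block. The row of Rps12 was lower by 0.49 log2 units with LPS in control cells and by 0.04 in Ctbp1 siRNA cells. With its near copies added, the interaction was 0.05 (adjusted p = 0.966), and the row of Rps12-ps3, identical to Rps12 over 384 coding bases, was higher with LPS in control cells and lower in Ctbp1 siRNA cells by mean TPM.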

How the results depend on the processing

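Scaling decided most directions of the LPS comparisons. With median-of-ratios scaling, members called higher and lower were 11 and 12 in control, 21 and 4 in Ctbp1 siRNA and 18 and 4 in Ctbp2 siRNA cells; with libraries centred on the members' median they were 6 and 15, 12 and 14, and 13 and 10. With median-of-ratios scaling, the summed level differed between LPS and vehicle by −0.0009 percentage points in control, 0.152 in Ctbp1 siRNA and 0.107 in Ctbp2 siRNA cells, and between double knockout and wildtype by −0.401. The lists under LPS in control cells then had 25 translation factors higher and 2 lower, 4 and 1 other ribosomal components, 45 and 3 biogenesis genes, 12 and 21 mitochondrial ribosomal proteins, 4 escorts and 5 p53 targets higher. Of all 7918 genes, 2853 were higher and 2829 lower there with that scaling. In the double knockout 16 translation factors and 6 escorts were lower, where 1636 of all 7782 genes were lower and 1711 higher. In the double knockout, lower members numbered 10 with median-of-ratios scaling, 2 when centred, 3 without a filter, 2 with eBayes without trend and 8 with copies, and higher members 5 when centred. With Ctbp2 siRNA in LPS cells, median-of-ratios scaling gave 4 higher and 0 lower, centring 1 lower, and both no filter and only the 6 libraries compared 0 lower; in vehicle cells that scaling gave 1 higher. With Ctbp1 siRNA in vehicle cells 0 were lower when centred, with eBayes without trend or with copies; in LPS cells 0 were higher at a mean of at least 1 TPM, without a filter, with eBayes without trend, with only the 6 libraries compared or with copies. For the Ctbp1 siRNA interaction 0 were higher at a mean of at least 1 TPM, without a filter, with median-of-ratios scaling, with eBayes without trend or with copies. Copies left 1 member higher with LPS in Ctbp2 siRNA cells.

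Genes whose TPM difference changed sign, in log2 units: with LPS in control cells under median-of-ratios scaling Rplp0 0.091, Rplp1 0.0252, Rplp2 0.0632, Rpsa 0.0546, Rpl5 0.176, Rps27l 0.0339, Rpl19 0.18, Rps9 0.124, Eef1a1 0.0897, Npm1 0.0198, Ncl 0.154, Fau 0.129 and Rack1 0.126; when centred Rplp0 0.0792, Rplp1 0.0133, Rplp2 0.0514, Rpsa 0.0427, Rps27l 0.0221, Rpl19 0.168 and Rps9 0.113. In Ctbp1 siRNA cells they were Rps12 0.145, Rplp0 0.0392, Rplp2 0.0707, Rpl22 0.0102, Rpl19 0.122 and Rpl7 0.122, when centred Rps12 0.0991, Rplp2 0.0252 and Rpl19 0.0764, and with copies Rpl5 −0.118 and Rps27 −0.139. In Ctbp2 siRNA cells they were Rps12 0.0033, Rplp0 0.0822, Rpl22 0.0267, Rpl22l1 0.0383, Rpl19 0.161, Rps9 0.161 and Rpl7 0.0533, when centred Rplp0 0.0642, Rpl22 0.0087, Rpl22l1 0.0205, Rpl19 0.144, Rps9 0.143 and Rpl7 0.0354, and with copies Rpl5 −0.141, Rps27 −0.188 and Rpl27 −0.154. The cause was not tested.

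With 1 library left out, LPS lowered 64 to 70 members in control, 41 to 58 in Ctbp1 siRNA and 68 to 72 in Ctbp2 siRNA cells, with 2 to 2 higher in each. The other ranges were 0 to 1 lower for Ctbp1 siRNA in vehicle and 0 to 2 higher in LPS, 0 to 1 higher for Ctbp2 siRNA in vehicle, 0 to 1 higher and 0 to 2 lower in LPS, 0 to 1 higher for the Ctbp1 siRNA interaction, and 2 to 6 higher and 2 to 5 lower in the double knockout. The summed level differed by −0.940 to −0.840, −0.753 to −0.567 and −1.01 to −0.846 percentage points with LPS in control, Ctbp1 and Ctbp2 siRNA cells, and by −0.191 to −0.0205 in the double knockout.

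Libraries of the same number correlated in their deviations by −0.15 to 0.324 in BMDMs, where 18 of 18 were closest to their own number, and by −0.0264 to 0.163 in J774.1 cells (4 of 6). A replicate block gave 1 higher member for Ctbp2 siRNA in vehicle and 0 for the Ctbp1 siRNA interaction (Rps12 adjusted p = 0.0508, limma), an adjusted p of 0.0522 for Rpl27a in the double knockout and of 0.0348 for Rpl19 with LPS in Ctbp2 siRNA cells, and changed no other call among the members named. Depth per library is unknown.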
